A study of Mus musculus with 2 samples.

Results

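The enzymes that handle glutathione, thioredoxin and peroxides were described in 2 libraries of messenger RNA from macrophage cultures, 1 labelled M2+GANT61 and 1 labelled M2+DMSO. The group comprised every gene of the deposited table whose symbol began with a glutathione transferase, glutathione peroxidase, peroxiredoxin or thioredoxin stem (Gsta, Gstm, Gstp, Gstt, Gstk, Gsto, Gstz, Mgst, Gpx, Prdx, Txn). To these were added Gclc, Gclm, Gss, Gsr, Sod1, Sod2, Sod3, Nqo1, Srxn1, Nfe2l2 and Keap1. This gave 69 of 20003 genes. The symbol rule also took in thioredoxin-domain proteins with other work, such as the splicing factors Txnl4a and Txnl4b, and a pseudogene, Gpx2-ps1. The series addressed how Hedgehog blockade alters the transcriptome of macrophages.

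The cells of both libraries were labelled RAW 264.7, a mouse macrophage line, grown in medium with 10% serum and given macrophage colony-stimulating factor (M-CSF, 20 ng/mL) and interleukin 4 (IL-4, 10 ng/mL). For M2+GANT61 the cells had received 10 µM GANT61, a small molecule that inhibits the GLI transcription factors of the Hedgehog pathway, 4 h before IL-4. For M2+DMSO they had received the solvent, DMSO, at the same point. The duration of IL-4 exposure was 15 min in one of the labels' texts and 24 h in another. The libraries are called the GANT61 and the DMSO library from here on. The GANT61 library held 57705874 reads over genes, so that a count of 0 allowed up to 0.0528 CPM (counts per 1000000 scaled counts). The DMSO library held 61632784, and a count of 0 allowed up to 0.0479 CPM. Each group being 1 library, no replicate check and no test between conditions could be made, and every interval below covers counting error only.

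Both libraries went against the label of a pure macrophage line. All 8 macrophage markers examined were above 10 CPM in both libraries, but so were 29 of 37 markers of other cell types. The 8 adipocyte markers were all lower in the GANT61 library, with a summed level of 929 CPM, against 6004 CPM in the DMSO library. The 8 macrophage markers were all higher, with a summed level of 4368 CPM in the GANT61 library and 1930.3 CPM in the DMSO library. Epithelial markers summed to 2756 CPM (GANT61) against 3145 CPM (DMSO), and fibroblast markers to 6030.3 CPM (GANT61) against 5359.8 CPM (DMSO). The epithelial sum joins markers that went opposite ways. Of 6, 3 had ratios of GANT61 over DMSO above 1 and 3 below, from 3.13 for Krt5 to 0.583 for Krt18. Of the 4 hepatocyte markers, Alb, the only one over 1 CPM on average, was lower at 1.04 CPM (GANT61) against 9.51 CPM (DMSO), a ratio of 0.110 (0.0821 to 0.143). Serpina1a had 54 reads (GANT61) against 40 reads (DMSO), Ttr had 3 reads (GANT61) against 0 reads (DMSO) and Apoa1 had 0 reads (GANT61) against 1 read (DMSO). In such bulk samples fewer cells of a type and less RNA per cell cannot be told apart. The part of these cell type differences in the results below was not tested.

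Glutathione, a cysteine-containing tripeptide, and thioredoxin, a small protein with a reactive pair of cysteines, are the main carriers of reducing power for peroxide removal in the cytosol. Glutathione is made by glutamate-cysteine ligase and glutathione synthetase, is used by peroxidases and transferases, and is restored from its oxidised form by glutathione reductase with NADPH. Thioredoxin reduces most of the peroxiredoxins and is itself restored by thioredoxin reductases. Many of these genes are known targets of NRF2, a transcription factor that KEAP1 marks for degradation until oxidants or electrophiles modify it. NRF2 binds the antioxidant response element (ARE). In macrophages these systems meet the oxidants that the phagocyte NADPH oxidase produces.

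The ARE core was searched as TGACNNNGC on both strands in RefSeq promoter windows of 300 bases (250 before to 50 after the annotated start, GRCm38.p6). Windows were at hand for 59 of the 69 genes. At least 1 window held the core for 13 of these, 22.03%, against 13.99% of all 27018 genes with a window and 17.1% of those with a mean of at least 1 CPM. Among the genes that met the rule of size given below, it was present for 3 of 11 lower and 0 of 3 higher genes, and for 8 of 36 that were neither. The consensus of the GLI factors, GACCACCCA, was in no member window and in 0.289% of all genes. A match describes letters in the window and not a bound site. Shown here are 3 stretches of genes that were lower in the GANT61 library (Gsta3, Gstm5, Sod1) and 3 of genes that differed less (Gclm, Prdx1, Txnrd1), each 5′ to 3′ on the strand of the gene, with the core or its reverse complement in capitals.
Gsta3 (chr1:21240444-21240492, plus strand): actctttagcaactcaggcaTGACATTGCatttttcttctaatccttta
Gstm5 (chr3:107895792-107895840, plus strand): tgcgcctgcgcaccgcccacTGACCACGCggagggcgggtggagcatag
Sod1 (chr16:90220686-90220734, plus strand): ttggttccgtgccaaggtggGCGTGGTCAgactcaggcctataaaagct
Gclm (chr3:122245403-122245451, plus strand): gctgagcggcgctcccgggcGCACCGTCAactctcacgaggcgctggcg
Prdx1 (chr4:116685446-116685494, plus strand): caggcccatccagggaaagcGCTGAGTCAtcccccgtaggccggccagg
Txnrd1 (chr10:82859094-82859142, plus strand): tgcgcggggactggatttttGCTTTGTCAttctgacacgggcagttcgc

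TMM scaling (trimmed mean of M values) was applied to the counts, and each ratio below is the GANT61 over the DMSO library with its 95% exact Clopper-Pearson interval. A rule of size set the calls: higher meant a ratio of 1.5 or more, lower its inverse or less, in each case with an interval without 1 and a mean level of 1 CPM or more. Of the 69 genes, 58 reached that mean. By this rule 12 were lower, 3 were higher and 43 were neither. The lower share was 20.7%, beside 10.3% of all 13939 genes over the floor, and the higher share was 5.17%, beside 14.1% of all genes. The median log2 ratio was -0.24, beside -0.01 for all genes, and 42 of the 58 had a ratio below 1 (43 with the trend in gene length removed and 45 with plain totals). At a fold of 2, 5 members were lower and 1 higher, where 4.27% and 6.97% of all genes were. Together the 69 genes took 0.547% of the reads in the GANT61 library and 0.682% in the DMSO library. Gpx2 was the only member over the floor that lay under 1 CPM in one of the libraries, so its place among the called genes came from the library in which it was high.

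**Figure D1:**
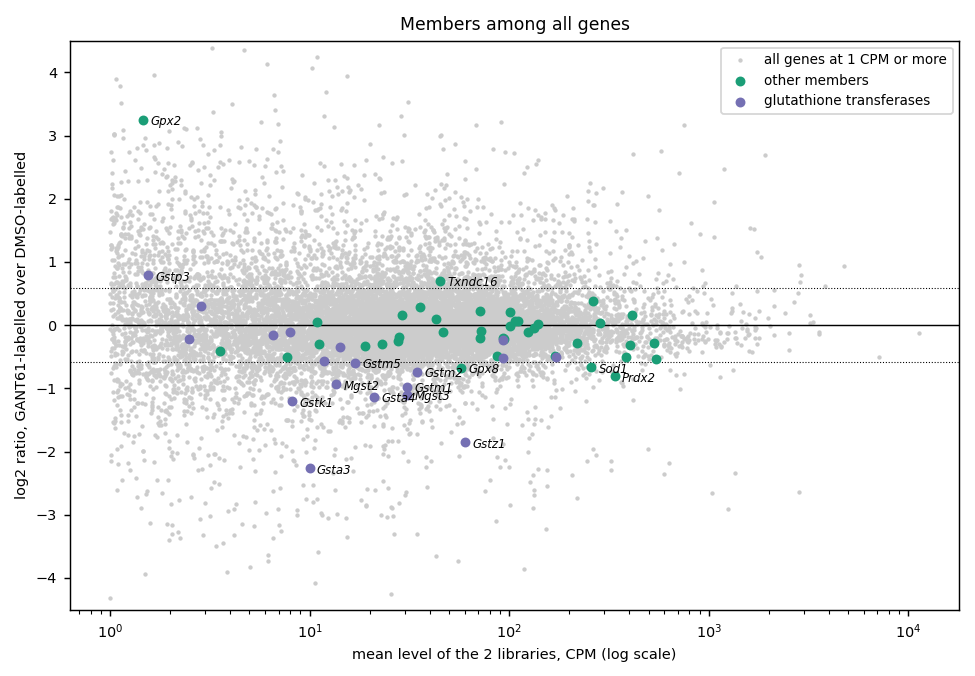
Log2 ratio of the GANT61 over the DMSO library (y axis) against the mean level in CPM on a log scale (x axis) for all genes over the floor of 1 CPM (grey), glutathione transferases (purple) and other members (green), with dotted lines at 1.5-fold. Names mark the 12 lower and 3 higher members. Genes beyond a log2 ratio of 4.5 in either direction, 13 in number and none of them members, lie outside the axis.

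The 11 members under the floor had few reads. Gpx6, an olfactory glutathione peroxidase, had none in either library. Gpx5, Prdx6b, Gstm3, Gstt4, Gpx2-ps1 and Txndc2 had 4 reads or fewer in each library. The other 4 were Gsta1, Gsta2, Gstm6 and Gstm7, whose reads are given with their classes.

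Glutathione transferases, which join glutathione to electrophiles or use it to reduce them, held most of the lower genes. Of 25 listed, 19 were over the floor, and 9 of these were lower, 1 was higher and 9 were neither, with a median log2 ratio of -0.57. The lower share was 47.4% and the higher share 5.26%, beside 10.3% and 14.1% of all genes. Of the other 39 members over the floor, 3 were lower and 2 higher, with a median of -0.19. Their shares, 7.69% lower and 5.13% higher, were both below those of all genes. Whether the transferases differ from the other members beyond library-to-library spread could not be tested. Their summed level per length was 353 RPKM in the GANT61 library, against 558 RPKM in the DMSO library, where RPKM is the authors' read count scaled to the length of the gene and the size of the library.

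Both alpha-class transferases over the floor were lower, beside 10.3% of all genes over the floor. Gsta3, known in mouse for conjugating aflatoxin epoxide, was at 3.45 CPM in the GANT61 library, against 16.6 CPM in the DMSO library, a ratio of 0.208 (0.178 to 0.242). Gsta4, which clears the lipid peroxidation product 4-hydroxynonenal, was at 13.2 CPM (GANT61) against 29.0 CPM (DMSO), a ratio of 0.456 (0.418 to 0.496). The other pair of the class was scarce and ran the other way. Gsta1 had 37 reads (GANT61) against 1 read (DMSO), a ratio of 27.1 (6.87 to 1652), and Gsta2 had 50 reads (GANT61) against 20 reads (DMSO), a ratio of 2.71 (1.61 to 4.88). Their means were under the floor. Their counts are uncertain, because 90.5% of the 50-base words of Gsta1 transcripts and 49.8% of those of Gsta2 occur in transcripts of other annotated genes. Gsta1, Gsta2 and Gsta4 lie together at chr9:78191966-78347192 (mm10), while Gsta3 lies at chr1:21240565-21265575. Ratios in the chromosome 9 cluster fell on both sides of 1, but those above 1 rest on the scarce and uncertain counts of Gsta1 and Gsta2.

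The mu class, 7 genes side by side at chr3:107895854-108045179 (mm10), had 3 lower genes and none higher among the 4 over the floor. Those are shares of 75% and 0%, beside 10.3% and 14.1% of all genes. Gstm1, an enzyme of xenobiotic conjugation, was at 20.7 CPM in the GANT61 library, against 40.6 CPM in the DMSO library, a ratio of 0.510 (0.476 to 0.547). Gstm2, the mu-class gene of highest level, was at 25.9 CPM (GANT61) against 43.1 CPM (DMSO), a ratio of 0.600 (0.563 to 0.640), and Gstm5 was at 13.5 CPM (GANT61) against 20.4 CPM (DMSO), a ratio of 0.660 (0.602 to 0.722). Gstm4 was at 6.21 CPM (GANT61) against 6.93 CPM (DMSO), a ratio of 0.896 (0.776 to 1.03) with an interval that includes 1. Under the floor, Gstm7 had 22 reads (GANT61) against 90 reads (DMSO) and Gstm6 had 9 reads (GANT61) against 29 reads (DMSO). All 7 neighbours had fewer scaled reads in the GANT61 library, although Gstm3 rests on a single read. Of the words of Gstm1 transcripts, 18.9% are shared with other genes, chiefly a pseudogene. Gstm5 was the lower gene closest to the threshold, and the theta-class Gstt1, at 0.674 (0.605 to 0.751), was the closest outside it. Without the trend in gene length, the ratio of Gstm5 was 0.714 and no longer met the rule.

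The most abundant transferases differed less. Gstp1, a pi-class enzyme, was at 81.0 RPKM (GANT61) against 117 RPKM (DMSO), and its ratio of scaled counts was 0.697 (0.671 to 0.724). Mgst1, a membrane-bound transferase, was at 80.2 RPKM (GANT61) against 114 RPKM (DMSO) and Gsto1, an omega-class enzyme that reduces dehydroascorbate, at 57.3 RPKM (GANT61) against 67.5 RPKM (DMSO). Their ratios were 0.708 (0.688 to 0.728) and 0.853 (0.822 to 0.886). These 3 genes led the family in both libraries, and none of them met the rule. Gstp3 was the only transferase called higher, at 1.97 CPM (GANT61) against 1.13 CPM (DMSO), a ratio of 1.73 (1.28 to 2.37) close to the floor. Gstp2, at a ratio of 0.858 (0.676 to 1.08), shares 54.3% of its words with other genes, chiefly Gstp1. Of the words of Gstp1 transcripts, 33.7% are shared with other genes, chiefly Gstp2. The 3 theta-class genes over the floor, Gstt1, Gstt2 and Gstt3, had ratios from 0.674 to 0.929.

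Gstz1 showed the largest difference among transferases above 20 CPM in both libraries. It encodes the zeta-class enzyme that isomerises maleylacetoacetate in tyrosine breakdown, and it was at 26.1 CPM in the GANT61 library, against 94.3 CPM in the DMSO library, a ratio of 0.277 (0.261 to 0.293). Its exons overlap those of Pomt2 on the opposite strand (Gstz1 at chr12:87147161-87164723, mm10), whose ratio was 0.941 (0.871 to 1.02), and the strand setting of the counting was not given. Gstk1, the kappa-class enzyme of mitochondria and peroxisomes, was at 4.93 CPM (GANT61) against 11.4 CPM (DMSO), a ratio of 0.434 (0.376 to 0.498). The microsomal Mgst3 was at 19.7 CPM (GANT61) against 42.2 CPM (DMSO), a ratio of 0.466 (0.434 to 0.4999), and Mgst2 at 9.33 CPM (GANT61) against 17.8 CPM (DMSO), a ratio of 0.523 (0.471 to 0.581). Mgst2 and Mgst3 belong to the membrane protein family of leukotriene C4 synthase. Gsto2 had a ratio of 1.23 (0.990 to 1.53).

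**Figure D2:**
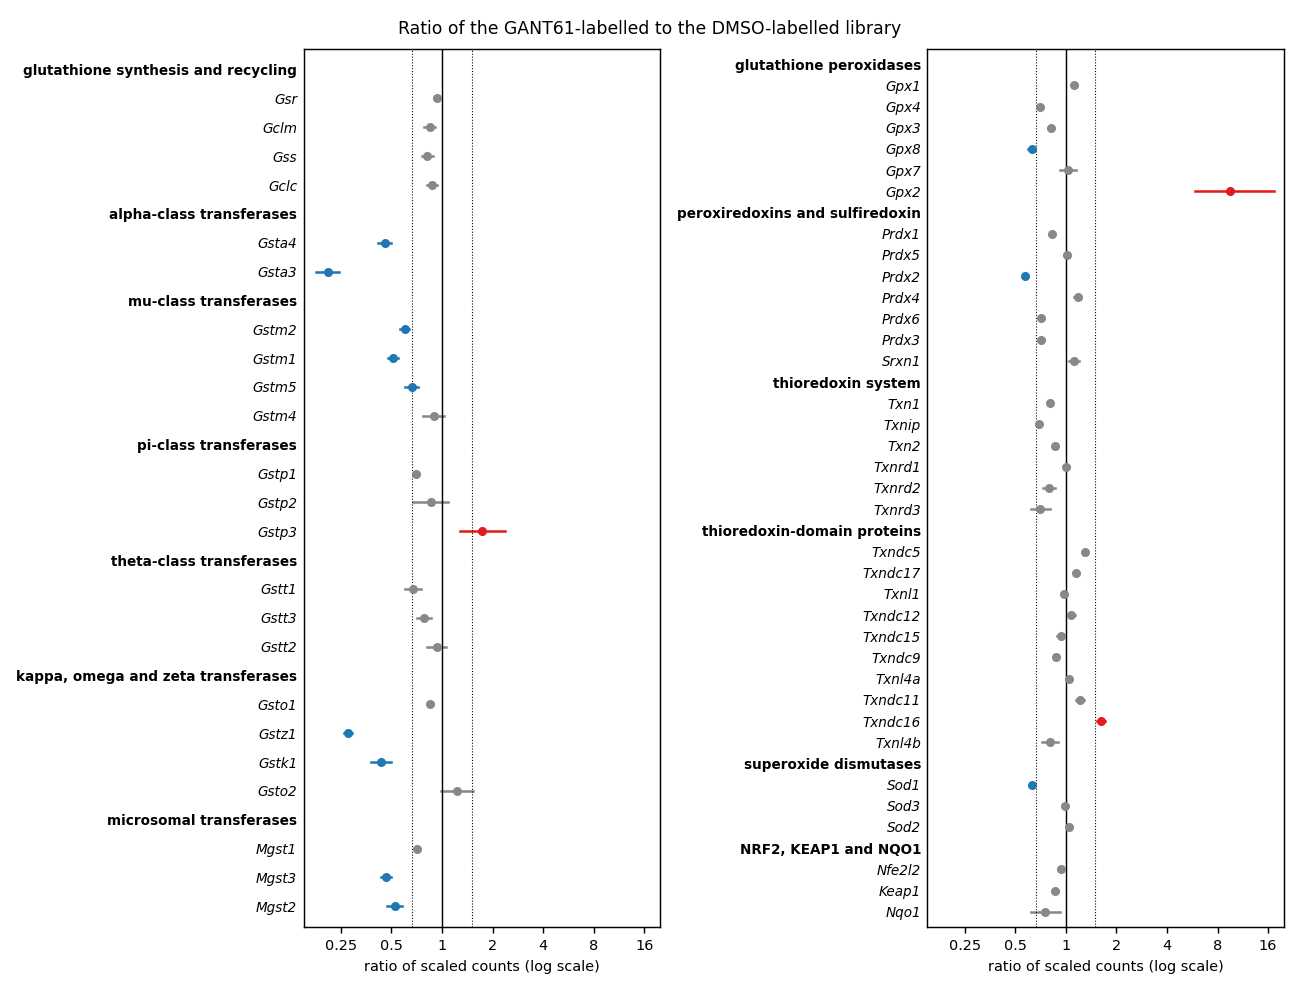
Ratio of the GANT61 over the DMSO library (x axis, log scale) for the 58 members over 1 CPM, ordered by role and, within a role, by level, with 95% counting intervals as bars. Blue points are lower, red higher and grey neither by the rule of size, and dotted lines mark 1.5-fold. The transferases reach down to 0.208 for Gsta3, while synthesis enzymes, thioredoxins and thioredoxin reductases lie between 0.705 and 1.01.

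The enzymes that make and recycle glutathione differed little between the libraries. Gclc, the catalytic subunit of glutamate-cysteine ligase, was at 26.1 CPM in the GANT61 library, against 29.9 CPM in the DMSO library, a ratio of 0.874 (0.816 to 0.936). Gclm, its modifier subunit, was at 25.3 CPM (GANT61) against 29.9 CPM (DMSO), and Gss, glutathione synthetase, at 20.6 CPM (GANT61) against 25.3 CPM (DMSO). Their ratios were 0.844 (0.787 to 0.904) and 0.817 (0.757 to 0.881). Gsr, glutathione reductase, was the most abundant of the 4 at 20.6 RPKM (GANT61) against 22.04 RPKM (DMSO), with a ratio of 0.937 (0.898 to 0.978). All 4 ratios were below 1 with intervals that exclude 1, and 0 of 4 met the rule, beside 24.4% of all genes over the floor.

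Among glutathione peroxidases, most of which reduce peroxides with glutathione, Gpx1 led in both libraries and Gpx2 differed most. Gpx1, the cytosolic selenoenzyme, was at 327 RPKM (GANT61) against 294 RPKM (DMSO), a ratio of scaled counts of 1.12 (1.10 to 1.14). Gpx4, which reduces phospholipid hydroperoxides and protects cells from ferroptosis, was at 163 RPKM (GANT61) against 233 RPKM (DMSO), with a ratio of 0.702 (0.689 to 0.715) just outside the rule. Of the words of Gpx4 transcripts, 34.7% are shared with other genes, chiefly a pseudogene. Gpx2, the gastrointestinal selenoenzyme, had 151 reads (GANT61) against 17 reads (DMSO), or 2.66 CPM (GANT61) against 0.272 CPM (DMSO), a ratio of 9.52 (5.91 to 17.2). It was still a minor peroxidase, at 1.97 RPKM in the GANT61 library. Gpx3, the secreted plasma form, had a ratio of 0.820 (0.800 to 0.840). Of the endoplasmic reticulum forms, Gpx8 was lower at 44.4 CPM (GANT61) against 70.8 CPM (DMSO), a ratio of 0.628 (0.597 to 0.659), and Gpx7 was at 10.998 CPM (GANT61) against 10.7 CPM (DMSO), a ratio of 1.03 (0.922 to 1.15). Without the trend in gene length, the ratio of Gpx8 was 0.677 and no longer met the rule.

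The share of peroxidase transcripts per length thus differed between the libraries. Gpx1 made up 51.9% (GANT61) against 41.6% (DMSO) of the summed RPKM of the family. Gpx4 made up 25.9% (GANT61) against 32.9% (DMSO). These libraries held the same 3 leading genes, Gpx1, Gpx4 and Gpx3, in that order.

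Of the peroxiredoxins, thiol peroxidases mostly restored by thioredoxin, only Prdx2 met the rule. Prdx2, a cytosolic form abundant in red blood cells, was at 246 CPM in the GANT61 library, against 431 CPM in the DMSO library, a ratio of 0.570 (0.558 to 0.581). In the GENCODE annotation its exons overlap those of Junb and Rnaseh2a on the opposite strand, which had ratios of 1.30 (1.28 to 1.33) and 0.782 (0.733 to 0.834). Beside it, the 4 erythroid markers over the floor had ratios from 0.617 to 0.741, and the 6 listed summed to 280.2 CPM (GANT61) against 398 CPM (DMSO). The part of erythroid cells in the ratio of Prdx2 was not tested. Prdx1, the most abundant member of the family, was at 267 RPKM (GANT61) against 325 RPKM (DMSO), with a ratio of scaled counts of 0.824 (0.812 to 0.837). Prdx5, found in mitochondria and peroxisomes, was at 180.0 RPKM (GANT61) against 177 RPKM (DMSO), with a ratio of 1.02 (1.0002 to 1.04). Prdx4, the secretory pathway form, had a ratio of 1.17 (1.13 to 1.23). Prdx3, the mitochondrial form, and Prdx6, which also has phospholipase activity, were at ratios of 0.713 (0.685 to 0.741) and 0.715 (0.695 to 0.735). Srxn1, sulfiredoxin, which repairs over-oxidised peroxiredoxins, had a ratio of 1.12 (1.05 to 1.20). Prdx2 took 17.4% (GANT61) against 24.6% (DMSO) of the summed RPKM of the peroxiredoxins, and Prdx5 25.1% (GANT61) against 19.8% (DMSO).

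**Figure D3:**
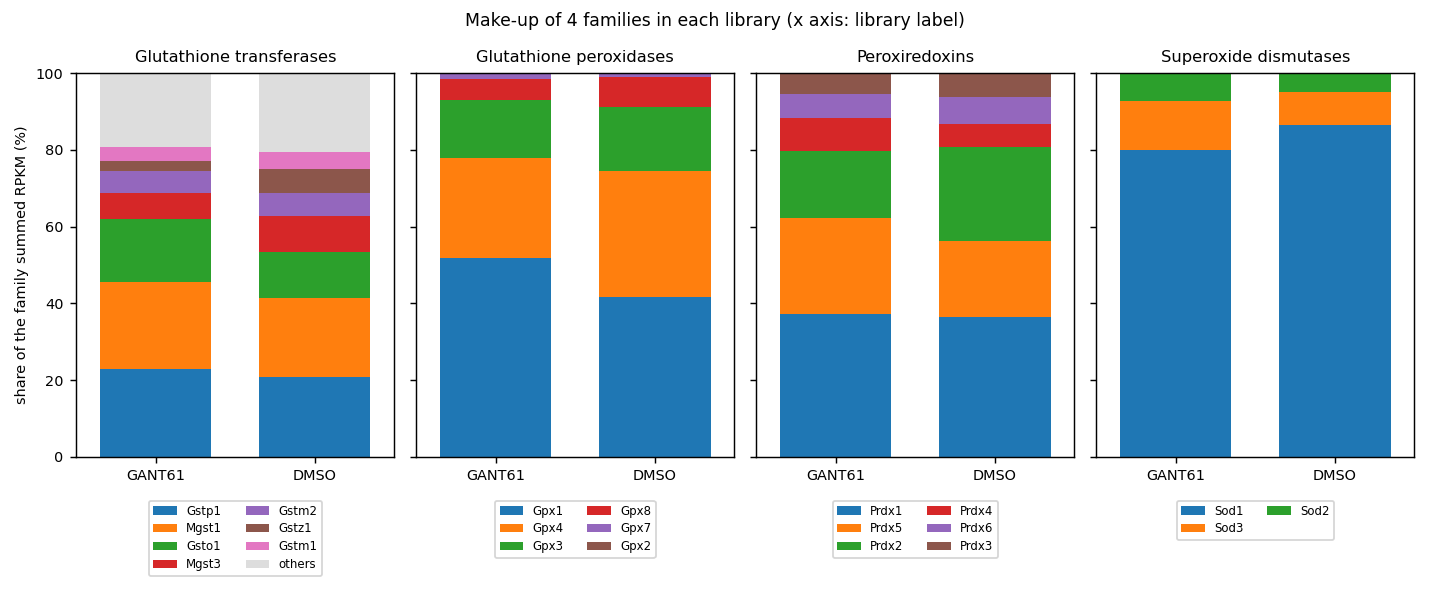
Share of the summed RPKM of each family (y axis, %) taken by each gene in the GANT61 library (left bar) and the DMSO library (right bar), for glutathione transferases, glutathione peroxidases, peroxiredoxins and superoxide dismutases. Gpx1, Prdx5 and Gsto1 took larger shares in the GANT61 library, and Gpx4, Prdx2, Gstz1 and Sod1 smaller ones.

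In the thioredoxin system 0 of 6 genes met the rule, beside 24.4% of all genes over the floor. Txn1, the cytosolic thioredoxin, was at 270.4 RPKM (GANT61) against 338 RPKM (DMSO) and ranked second among all members in each library, with a ratio of scaled counts of 0.804 (0.790 to 0.819). Txnip, which binds thioredoxin and restrains glucose uptake, was at 447 CPM (GANT61) against 645 CPM (DMSO), a ratio of 0.693 (0.682 to 0.704). Txnrd1, the cytosolic thioredoxin reductase, was at 139.9 CPM (GANT61) against 139 CPM (DMSO), a ratio of 1.01 (0.979 to 1.04) whose interval includes 1. Its mitochondrial counterparts were Txn2, at a ratio of 0.866 (0.830 to 0.904), and Txnrd2, at 0.794 (0.730 to 0.863). Txnrd3, a reductase best known from testis, had a ratio of 0.705 (0.616 to 0.805).

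Thioredoxin-domain proteins were the only class with a median log2 ratio above 0, at 0.08 over 10 genes. Of these, 1 was higher, a share of 10%, beside 14.1% of all genes over the floor. None was lower, beside 10.3% of all genes. Txndc16, a protein of the endoplasmic reticulum lumen, was at 55.8 CPM in the GANT61 library, against 34.3 CPM in the DMSO library, a ratio of 1.63 (1.54 to 1.72). Txndc5, a protein disulfide isomerase of the same compartment, was at 297 CPM (GANT61) against 227 CPM (DMSO), a ratio of 1.31 (1.28 to 1.34). Txndc17, a cytosolic disulfide reductase, had a ratio of 1.16 (1.12 to 1.20). Txndc11, Txndc12 and Txndc15 had ratios of 1.21, 1.07 and 0.930, and Txnl1, Txnl4a, Txnl4b and Txndc9 lay between 0.810 and 1.04. The 7 selenoproteins, Gpx1 to Gpx4 and the 3 thioredoxin reductases, had 1 higher gene, Gpx2, and 0 lower. Their higher share was 14.3%, near the 14.1% of all genes, of which 10.3% were lower. Gpx2 reached the floor only through the GANT61 library.

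Of the superoxide dismutases, which turn superoxide into hydrogen peroxide, Sod1 was lower and the other two were nearly level. Sod1, the cytosolic copper-zinc enzyme, had the highest RPKM of all members in the DMSO library and the fourth highest in the GANT61 library, at 247 RPKM (GANT61) against 394 RPKM (DMSO). In scaled counts it was at 199 CPM (GANT61) against 316 CPM (DMSO), a ratio of 0.630 (0.615 to 0.644). Without the trend in gene length that ratio was 0.685 and no longer met the rule. Sod2, the mitochondrial manganese enzyme, was at 110.0 CPM (GANT61) against 105 CPM (DMSO), a ratio of 1.05 (1.01 to 1.08). Of the words of Sod2 transcripts, 21.0% are shared with other genes. Sod3, the extracellular form, was at 100.4 CPM (GANT61) against 101 CPM (DMSO), a ratio of 0.994 (0.959 to 1.03) with an interval that includes 1.

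NRF2 itself, its inhibitor and the marker gene Nqo1 did not meet the rule. Nfe2l2, which encodes NRF2, was at 120.0 CPM in the GANT61 library, against 129 CPM in the DMSO library, a ratio of 0.930 (0.901 to 0.961). Keap1 was at 87.4 CPM (GANT61) against 102 CPM (DMSO), a ratio of 0.858 (0.827 to 0.890). Nqo1, a quinone reductase often used as an NRF2 readout, was scarce at 3.06 CPM (GANT61) against 4.06 CPM (DMSO), a ratio of 0.755 (0.618 to 0.919).

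**Figure D4:**
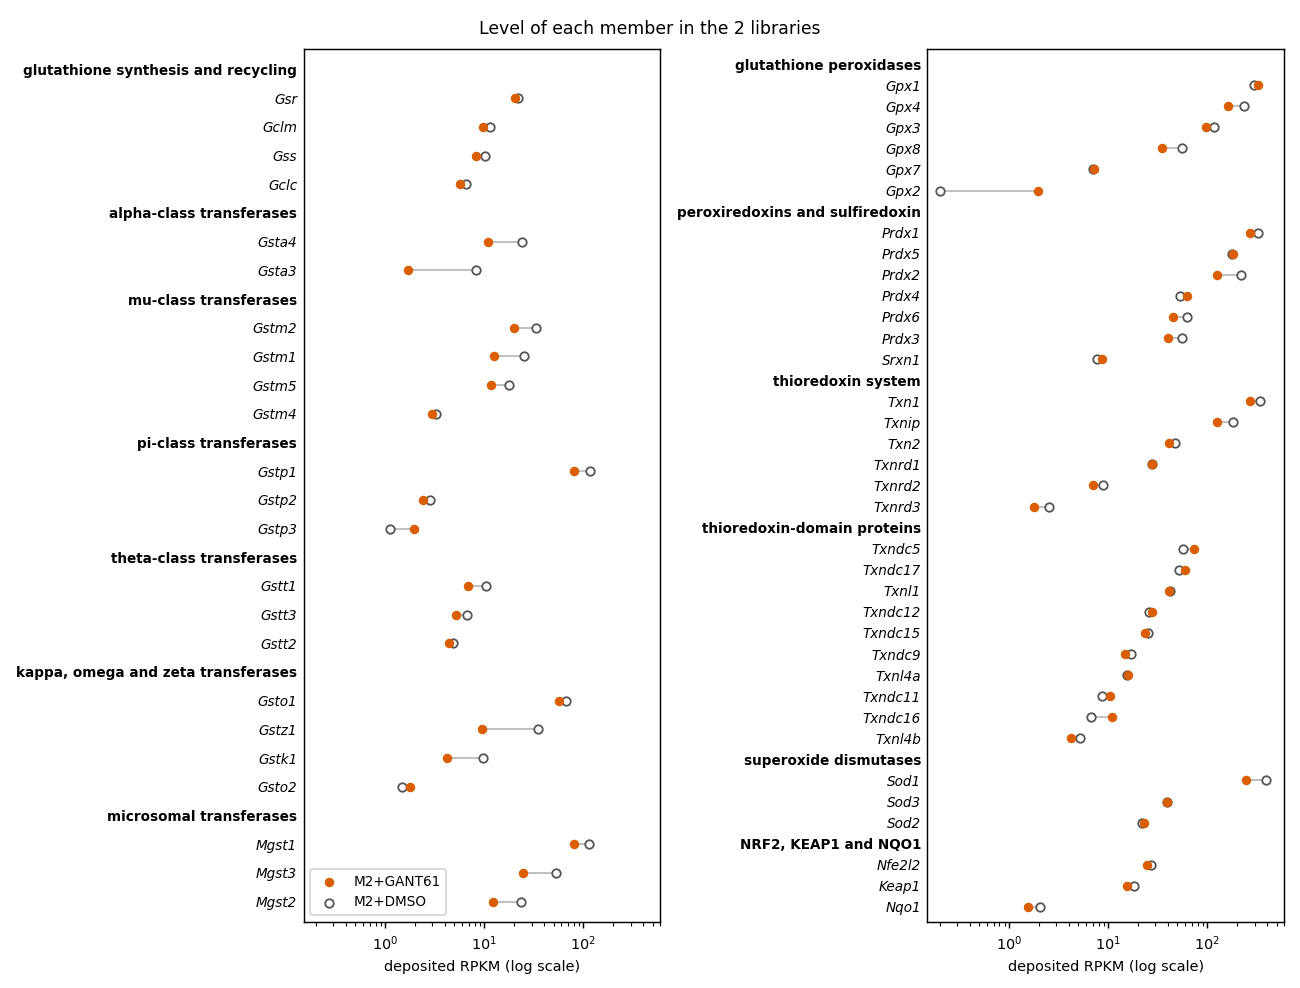
Deposited RPKM (x axis, log scale) of the 58 members over the floor in the GANT61 library (orange) and the DMSO library (open circles), grouped by role and ordered by mean level. Sod1, Txn1, Prdx1 and Gpx1 lie between 247 and 394 RPKM in both libraries, and Gpx2, Gsta3 and Gstz1 show the widest gaps.

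Most members had short transcripts, and short genes as a whole were slightly lower in the GANT61 library. Of the 58, 37 fell in the lowest quartile of gene model length, where the median log2 ratio of all genes was -0.10, against 0.07 in the highest quartile. The members of the lowest quartile had a median of -0.31, and 11 of the 12 lower genes were among them, the remaining gene being Gstz1. In that quartile 11.5% of all genes were lower. With the length trend removed, 9 of the 12 remained lower and the 3 higher genes remained higher, with a median of -0.21. Those lost were Gpx8, Gstm5 and Sod1.

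A companion list held 60 redox genes outside the symbol rule, of which 59 were over the floor, 15 higher, 11 lower and 33 neither, with a median log2 ratio of 0.02. These are the shares of 25.4% higher and 18.6% lower, beside 14.1% and 10.3% of all genes. Catalase and the suppliers of NADPH had 0 of 9 higher and 4 lower, or 44.4%, beside 14.1% and 10.3% of all genes. All 9 ratios were below 1, as were 51.0% of those of all genes. Me1, malic enzyme, was at 42.7 CPM in the GANT61 library, against 221 CPM in the DMSO library, a ratio of 0.193 (0.185 to 0.202). Cat, catalase, which removes hydrogen peroxide in peroxisomes, had a ratio of 0.455 (0.442 to 0.470), Tkt, transketolase, of 0.533 (0.523 to 0.544) and Idh1 of 0.580 (0.566 to 0.595). G6pdx and Pgd, the NADPH-forming enzymes of the pentose phosphate pathway, had ratios of 0.857 (0.828 to 0.887) and 0.842 (0.820 to 0.866). The adipocyte markers, at ratios from 0.101 to 0.196, were lower beside this list, and their part in its differences was not tested.

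Genes of glutathione turnover and transport were split, with 6 of 16 higher and 4 lower. These are shares of 37.5% and 25%, beside 14.1% and 10.3% of all genes. Slc7a11, the cystine transporter that feeds glutathione synthesis, was lower at 88.4 CPM in the GANT61 library, against 142 CPM in the DMSO library, a ratio of 0.625 (0.603 to 0.647). Glo1, which detoxifies methylglyoxal with glutathione, had a ratio of 0.639 (0.617 to 0.661). Oplah, which opens oxoproline to glutamate, and Ggt1, which starts the breakdown of extracellular glutathione, were lower at 0.418 (0.381 to 0.458) and 0.464 (0.388 to 0.551). On the higher side were Ggct and Chac1, cytosolic enzymes of glutathione breakdown, at 2.01 (1.83 to 2.21) and 2.06 (1.78 to 2.39). Ggt5 and Ggt6, relatives of Ggt1, were higher at 1.83 (1.70 to 1.97) and 2.92 (2.001 to 4.42). Abcc1, an exporter of glutathione conjugates, had a ratio of 1.85 (1.77 to 1.93). Hpgds, the sigma-class transferase that makes prostaglandin D2, had a ratio of 1.65 (1.52 to 1.78), on the other side of 1 from most of the transferases chosen by symbol.

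Glutaredoxins, methionine sulfoxide reductases and sestrins had 2 of 11 higher and 3 lower. These are shares of 18.2% and 27.3%, beside 14.1% and 10.3% of all genes. Glrx, the cytosolic glutaredoxin, was higher at 1.64 (1.57 to 1.72), as was Sesn2, a stress-induced sestrin, at 2.06 (1.80 to 2.35). Msrb2 and Msrb3, methionine sulfoxide reductases, were lower at 0.397 (0.346 to 0.453) and 0.653 (0.612 to 0.696), and Sesn3 at 0.593 (0.561 to 0.627). Among NRF2 partners and further NRF2 targets, 4 of 14 were higher, or 28.6%, and 0 lower, beside 14.1% and 10.3% of all genes. This list is not a full set of NRF2 targets. Others are counted among the members and in the other companion lists, which held lower genes as well as higher ones. Hmox1, heme oxygenase 1, was at 215 CPM in the GANT61 library, against 64.3 CPM in the DMSO library, a ratio of 3.35 (3.23 to 3.47). Bach1, a repressor that competes with NRF2 for its sites, had a ratio of 1.65 (1.59 to 1.71), and the small MAF partners Maff and Mafg had ratios of 1.61 (1.51 to 1.72) and 1.61 (1.51 to 1.71). The macrophage markers, at ratios from 1.63 to 3.36, were higher beside this list, and their part in its differences was not tested.

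**Figure D5:**
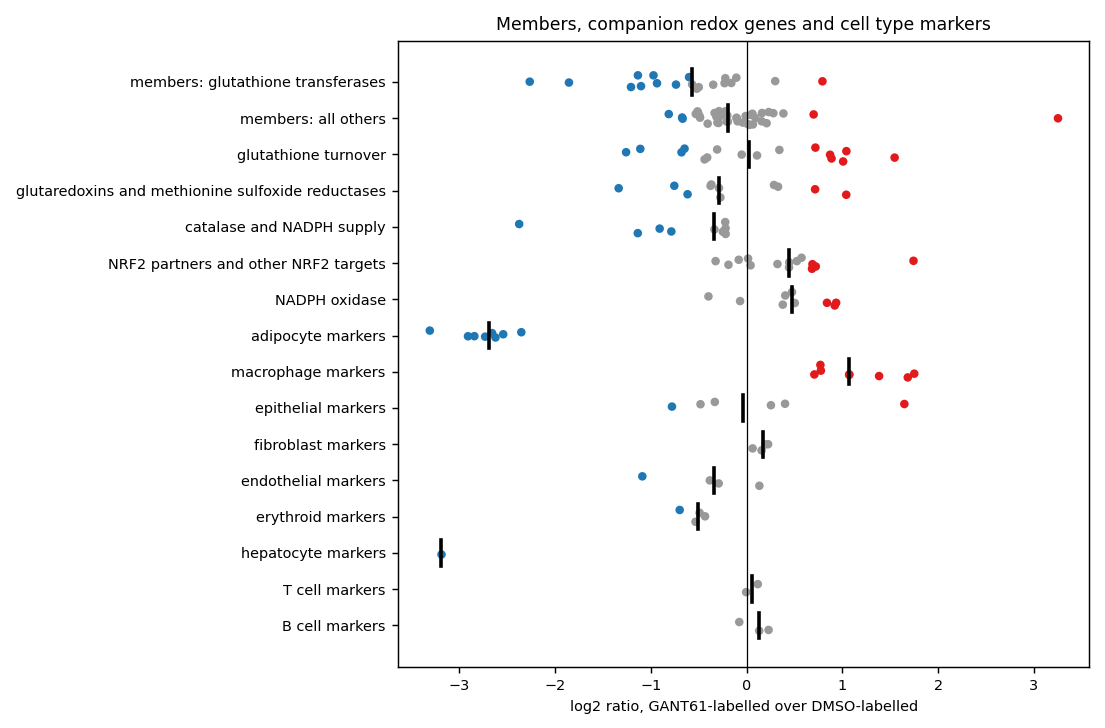
Log2 ratio of the GANT61 over the DMSO library (x axis) of each gene over the floor in the members, the companion lists and the cell type markers, with the median of each list as a black bar. Blue points are lower, red higher and grey neither by the rule of size. The transferases have a median of -0.57 and the other members of -0.19. Marker medians run from -3.18 for the 1 hepatocyte gene over the floor and -2.69 for adipocytes to 1.07 for macrophages. Those of erythroid and endothelial markers are -0.51 and -0.34.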

How the data were processed

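The deposited tables held unnormalized estimated counts per gene and RPKM values, with a column for each library. Tools in the submitters' processing notes were cutadapt, STAR, HISAT2, SAMtools and Partek, and builds were hg19 and mm10. What each did, the read counter, the annotation and the strandedness of counting were not given. Columns were tied to samples by the treatment in their names, since their numbers differ from those in the titles. Of the deposited counts, 29.5% (GANT61) and 29.8% (DMSO) were not whole, so reads of similar genes can have been divided. These expected counts were rounded.

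Scaling used TMM in edgeR 4.0.16 (R 4.3.3), with a prior count of 0.5 and Clopper-Pearson intervals at 95% in scipy 1.17.1 (Python 3.11.15). The ratio and call rule were tried on simulated counts with planted changes of known size. Those counts held counting error only, so they say nothing of the spread between libraries. A count of 0 was taken to allow 3 counts. Since reads lacked molecular identifiers and cannot count as independent molecules, intervals and limits cover counting error only. Alternatives were DESeq2 1.42.0 size factors, plain totals, the deposited RPKM ratio, no floor or one of 5 CPM, a fold of 2, a prior of 2, and removal of a lowess length trend (statsmodels 0.14.6, span 0.3). Positions and promoter windows came from RefSeq on GRCm38.p6 (mm10), exon overlaps and shared 50-base words from GENCODE transcripts.

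Genes named are all called members, those the rule spells out, the 15 of highest mean RPKM, the most abundant of each role and all called companions outside the NADPH oxidase. Others were named after their values were seen. A result of the companion list is not reported here. The members and lists were chosen with earlier results of these data known.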

Additional observations from a re-analysis of the deposited data

How the results depend on the processing

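Direction held for the called members under every alternative that rescaled or corrected the ratios. Counts of called genes were within 1.5 times the reported ones, with these exceptions. With a fold of 2, 1 member was higher and 5 were lower, and 5 companion genes were higher and 5 lower. With a floor of 5 CPM, 1 member was higher, Gpx2 and Gstp3 dropping out. With no floor, 5 members were higher, Gsta1 and Gsta2 being added. Plain totals added Gstt1 to the lower genes. The deposited RPKM ratio is a rescaling of the count ratio and no separate measurement, since the factor between them varied by at most 0.00119% over genes above the floor, and it changed no call of a named member. The median log2 ratio of the members ranged from -0.28 to -0.21, and among scalings the largest shift of the median log2 ratio of all genes was -0.04, with plain totals. No paired analysis was possible because each group held 1 library, and for the same reason no library could be left out. Depth limits the genes under the floor and Gpx2, Gstp3, Gstp2, Gsto2 and Nqo1, which had few reads.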

Other observations

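Genes of the phagocyte NADPH oxidase, which makes the superoxide that the dismutases convert, were also measured. The cytosolic subunit genes Ncf1 and Ncf4 were higher, at ratios of 1.79 (1.73 to 1.85) and 1.91 (1.82 to 2.01). Ncf1 was at 142 CPM (GANT61) against 79.6 CPM (DMSO). The membrane subunits Cybb and Cyba, at ratios of 1.39 (1.36 to 1.42) and 1.42 (1.38 to 1.45), and the GTPase Rac2, at 1.32 (1.28 to 1.37), did not meet the rule of size. Nox4, a constitutively active relative found in stromal cells, had a ratio of 0.759 (0.694 to 0.830), and Duox1 and Duox2, epithelial relatives, had ratios of 1.30 (1.12 to 1.51) and 0.955 (0.784 to 1.16). The macrophage markers had a median log2 ratio of 1.07 beside these genes, and their part in the differences was not tested.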
